A study of Ciona robusta with 3 samples.

Results

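A population of 145 cells in a droplet library of Ciona robusta embryos carried no complete reporter barcode. The matrix gene Matn4-KY.Chr14.958 was detected in 144 of them and KY.Chr13.80 in 71. These 145 cells are called Matn4 gate cells here. They were chosen by counts of unique molecular identifiers (UMIs, one per captured RNA molecule): no complete pair of sample barcodes, at least 5 UMIs in the sum of Matn4, KY.Chr13.80 and KY.Chr8.1095, and fewer than 5 in the sum of KY.Chr3.262, KY.Chr7.533 and KY.Chr10.630. They made up 5.76% of the 2517 cells used from this library, 14.12% of its 1027 cells without a complete barcode pair, and 145 of the 3438 cells of the whole series. The 3 gate genes and the 3 genes of the second sum chose the cells, so their values are a description and are left out of every count of genes.

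The study followed the cardiopharyngeal lineage of Ciona, a tunicate whose larva has few cells and a simple, fixed lineage. In the time series library, eggs pooled from several animals gave 10 batches of embryos, aged 5 to 14 h post-fertilization (hpf), and each batch was electroporated with its own pair of barcoded Mesp-driven GFP reporters. The cells were fixed in methanol, pooled and then sorted by FACS for GFP, so a cell with no complete barcode pair has no known age. In 2 CRISPR libraries, labelled repeats 1 and 2, embryos at 12 hpf had been electroporated with CRISPR reagents against Foxf, Gata4/5/6, Foxtun4 or a control, also under barcodes and also pooled. A barcoded sum of those libraries therefore mixes all these conditions. The Mesp enhancer is active in the founder cells of the lineage, and electroporated plasmids are inherited by only some of the cells, so the reporter marks the lineage but not every cell of it. The paper states that most lineage cells were effectively barcoded. It attributes its clusters without barcodes to contamination in the sort by cells outside the lineage, trunk epidermal cells with Foxf among them. The origin of the Matn4 gate cells was not tested here. The labels call the sorted cells cardio-pharyngeal progenitors.

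The founder cells, marked by Mesp, give rise to trunk ventral cells (TVCs), which are multipotent heart and pharyngeal muscle progenitors, and to anterior tail muscles (ATMs). Foxf is a forkhead transcription factor that is switched on in the TVCs, where it drives their migration, and it is also expressed in trunk epidermal cells outside the lineage. Nkx2-5, Gata4/5/6 and Hand factors are conserved regulators of heart progenitors. Matrilins such as Matn4 are secreted proteins that link other proteins of the extracellular matrix. Epi1 is an epidermal marker of the Ciona embryo, which is covered by a single-layered epidermis that secretes the larval tunic.

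The time series library held 2569 cell barcodes with 503 to 111403 UMIs each. The Matn4 gate cells had a median of 7142 gene UMIs (range 840 to 37315), against 14263 in the 1490 cells with a complete barcode pair, called barcoded cells below. The 10 barcode pairs were correlated at r = 0.91 to 0.99 over cells, apart from SBC000/SBC007 at 0.32. Levels below are CPM, counts scaled to a total of 1000000 gene UMIs over the summed cells. With 1 library there are no replicates and no test, and the 95% intervals cover counting error only (exact Poisson for a CPM, conditional binomial for a ratio, Clopper-Pearson for a share). None of the cell barcodes were shared between the time series and the CRISPR libraries (0), and 7 were shared between the CRISPR repeats, 0 of them among gate cells.

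The values that chose the cells were uneven. Matn4 had a UMI in 144 of the 145 cells and was the largest of the 3 gate genes in 128. KY.Chr13.80 had a UMI in 71 cells and KY.Chr8.1095 in 32, and only 14 cells had a UMI of each. Summed Matn4 was 6738 CPM in the Matn4 gate cells and 437 CPM in the barcoded cells. Of the 145 cells, 125 had a gate sum of 10 or more and 20 had a sum of 5 to 9. The 8 cells just inside the threshold, at a gate sum of 5, held 204 CPM of Foxf and 8746 CPM of Epi1-KY.Chr1.2380. The 7 unbarcoded cells just outside it, at a sum of 4, held 61.3 CPM of Foxf and 3128 CPM of Epi1.

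Barcode RNA was nearly absent from these cells. The number of sample barcode UMIs per cell had a median of 1 and a highest value of 6 in the Matn4 gate cells, and a median of 403.5 in the barcoded cells. At least 1 sample barcode UMI was found in 111 of the 145 cells, and these UMIs came from 8 of the 10 pairs (up to 46 cells for the pair SBC006/SBC014). Their source was not tested. Some barcoded cells shared the gate genes: 125 of 1490 (8.39%) had a gate sum of 5 or more, with a median of 4 sample barcode UMIs. Of these, 41 also had fewer than 5 UMIs in the second sum. Whether those pairs are stray barcode RNA was not tested, so ratios are given both over all barcoded cells and over the 1365 barcoded cells with a gate sum under 5.

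Foxf-KY.Chr3.1005 was as abundant in the Matn4 gate cells as in the sum of all barcoded cells. That sum pools founder cells, TVCs and ATMs of all ages, and 51.5% of the barcoded cells had a Foxf UMI. It is thus not the level of Foxf-expressing TVCs alone. A gate cell held between 0 and 12 Foxf UMIs (median 1): 55 cells had none, 34 had 1, 56 had 2 or more and 14 had 5 or more. Summed, it reached 158 CPM (138 to 179; 229 UMIs), against 153 CPM in the barcoded cells (148 to 158), a ratio of 1.03 (0.899 to 1.179). Over the barcoded cells with a gate sum under 5 the ratio was 1.01. Foxf was named when the cells were chosen, so these values describe it and test nothing.

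The other unbarcoded cells differed from the Matn4 gate cells in their Foxf level. In the 448 unbarcoded cells that passed both sums, Foxf reached 103 CPM (96.1 to 110). In the 72 that passed the second sum alone it reached 24.7 CPM (14.10 to 40.1). In the 362 that passed neither, called other unbarcoded cells below, it reached 19.7 CPM (15.8 to 24.2), and the gate cells were 8.01 times higher (6.25 to 10.3). Of these other unbarcoded cells, 26 had at least 1% of their UMIs in the muscle genes Myl1, Tnnc2, Tnni1 and Tnnt2. Those 26 held 0 Foxf UMIs at a median of 31497 UMIs per cell. That count of 0 allows a share of up to 13.2% of such cells with a UMI (Clopper-Pearson). The level of Foxf in free RNA was not tested.

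Shares of cells with a Foxf UMI followed the same order after depth was equalized. Foxf had a UMI in 90 of the 145 gate cells (62.1%, 53.6 to 70.0%), in 51.5% of the barcoded cells (48.9 to 54.0%) and in 9.12% of the other unbarcoded cells at a median of 9643 UMIs. With every cell thinned to 3000 UMIs, the shares were 34.6% of the gate cells (26.6 to 43.2%; 9 shallower cells left out), 28.9% of the barcoded cells (26.6 to 31.3%; 47 left out) and 6.05% of the other unbarcoded cells (48 left out). The intervals of the gate cells and the barcoded cells overlapped in both versions.

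Across the 10 barcode pairs Foxf ranged widely, and the Matn4 gate cells fell inside that range. Each batch of 1 age received its own pair, but a cell with more than 1 complete pair counts under each. The cell numbers below therefore overlap, and the values are not levels of single ages. The pair SBC000/SBC007 was only weakly correlated (r = 0.32). It was highest in SBC006/SBC014 (227 CPM, 608 cells) and next in SBC009/SBC015 (193 CPM, 72 cells), SBC005/SBC013 (166 CPM, 180 cells) and SBC010/SBC016 (160 CPM, 225 cells). It was lower in SBC018/SBC019 (105 CPM, 482 cells), SBC003/SBC011 (79.6 CPM, 142 cells), SBC002/SBC008 (64.0 CPM, 63 cells), SBC001/SBC004 (52.7 CPM, 102 cells) and SBC000/SBC007 (49.8 CPM, 15 cells), and 0 UMIs were found in the 9 cells of SBC012/SBC017. The gate cells, at 158 CPM, were within counting error of SBC005/SBC013 (ratio 0.948, 0.806 to 1.11) and SBC010/SBC016 (ratio 0.987, 0.844 to 1.15). They were below SBC006/SBC014 (ratio 0.695, 0.604 to 0.797) and SBC009/SBC015 (ratio 0.817, 0.679 to 0.983), and above SBC018/SBC019 (ratio 1.502, 1.29 to 1.74).

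**Figure D1:**
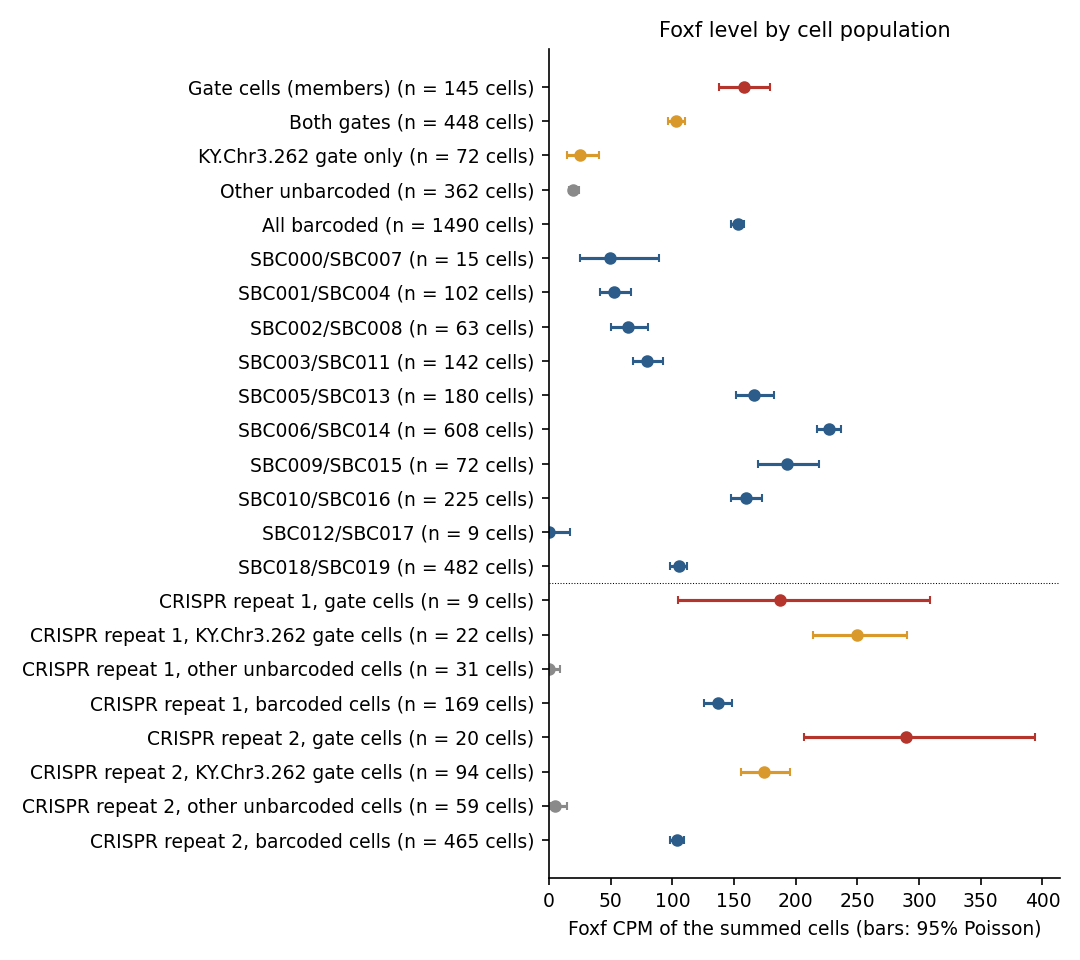
Foxf level (x axis, CPM of the summed cells) in each cell population (y axis, with its number of cells), with bars for exact 95% Poisson intervals, time series above the dotted line and CRISPR libraries below it. The gate cells of the time series (158 CPM) lie beside all barcoded cells (153 CPM), and the other unbarcoded cells lie far below (19.7 CPM).

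Most of the cardiac and muscle program did not accompany Foxf in these cells. Among the 10 TVC markers, 7 were over 4-fold lower than in the barcoded cells, as were 10.3% of all genes tested. Hand2-KY.Chr1.2070, a heart transcription factor, had 3.44 CPM against 601. Gata5-KY.Chr6.625, the Gata4/5/6 gene, had 2.75 against 53.6 CPM (ratio 0.05, 0.01 to 0.13). Enpp3-KY.Chr2.1038 (ratio 0.04) and Asb2-KY.Chr7.1211 (ratio 0.01) were low as well. Hand1-KY.Chr14.359 had 0 UMIs, against 667 in the barcoded cells, and was at least 13.6-fold lower by the floor of 3 UMIs over the gate cells.

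The exceptions among the TVC markers were Nkx2-5, Bmp2 and Ccnd2. Nkx2-5-KY.Chr8.909 ranged from 0 to 17 UMIs in single gate cells (median 0) and was seen in 64. Its level was 142 CPM (123 to 163) against 171 CPM in the barcoded cells, a ratio of 0.83 (0.72 to 0.95), and it was lower in the other unbarcoded cells (73.2 CPM) and in the unbarcoded cells that passed both sums (32.3 CPM). Relative to the median ratio of all genes, which is given below, Nkx2-5 came to 1.02, so no direction is drawn from it. With 3000 UMIs per cell, 30.9% of the gate cells, 30.4% of the barcoded cells and 12.7% of the other unbarcoded cells had an Nkx2-5 UMI, against 44.1%, 45.7% and 22.1% before thinning. Bmp2-KY.Chr4.449, a secreted growth factor, stood at 138 CPM against 55.4 (ratio 2.50, 2.14 to 2.90), and Ccnd2-KY.Chr2.2306, a D-type cyclin, at 306 CPM against 244 (ratio 1.26, 1.14 to 1.38).

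Foxf and Nkx2-5 were not found in the same cells throughout. Both had a UMI in 39 gate cells, Foxf alone in 51, Nkx2-5 alone in 25 and neither in 30. A missing UMI at this depth does not show that a cell lacks the RNA.

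Muscle genes were scarce. Of 10 ATM markers, 9 had ratios of at most 0.0092 in the Matn4 gate cells over the barcoded cells. Of these, 2 had 0 UMIs here, which counts as a ratio of 0 and only bounds the fold. Myl1-KY.Chr1.2010, a myosin light chain, stood at 9591 CPM in the barcoded cells and at 74.3 CPM here. The actin Actg2-KY.Chr1.2388 had 41299 CPM in the barcoded cells and 237 CPM here. Myf5-KY.Chr14.1058, a muscle determination factor, had 0 UMIs here and 3203 there, at least 65.1-fold lower. The exception was Mef2a-KY.Chr10.19, a MADS-box factor, at 73.7 against 34.1 CPM. The founder marker Mesp-KY.Chr3.993 had 1 UMI in the 145 cells and 966 in the barcoded cells (ratio 0.02, 4.3e-04 to 0.09).

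The markers of other tissues were also uneven. Epi1, the only epidermal marker of the list, had a UMI in all 145 gate cells, from 9 to 481 in each (median 80). It reached 10606 CPM, against 867 CPM over all barcoded cells (ratio 12.2, 11.98 to 12.5), and the ratio rose to 91.1 over the barcoded cells with a gate sum under 5. Epi1 was as high in the unbarcoded cells that passed both sums (10749 CPM) and lower in the other unbarcoded cells (807 CPM). With 1 marker, no tissue name is given to the cells, which are known here by their gate and leading genes.

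Nervous system markers summed to 383 CPM in the Matn4 gate cells, 269 in the barcoded cells and 769 in the other unbarcoded cells. All 5 had a UMI in the gate cells, and they did not move together. The ratios over the barcoded cells were 3.53 for Celf3-KY.Chr6.59, 2.35 (1.58 to 3.40) for Neurog3, 1.04 (0.91 to 1.19) for Elavl3, 0.515 (0.351 to 0.732) for Elavl4 and 0.479 (0.154 to 1.14) for Sox2, which had 5 UMIs. Notochord markers summed to 91.6, 205 and 288 CPM, with 4 of 4 detected here. Of 133 notochord marker UMIs, 37 were in 3 cells that each held at least 20 UMIs of Cldn16, Calml3, KY.Chr8.272 and KY.Chr1.1827. Mesenchyme markers summed to 6.20, 37.7 and 101 CPM, and 2 of 4 of them, Bhlha15 and C6, were at 0 here. The endoderm marker Alp1-KY.Chr6.211 was at 13.77, 8.78 and 177 CPM. Their part in the gene values below was not tested.

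**Figure D2:**
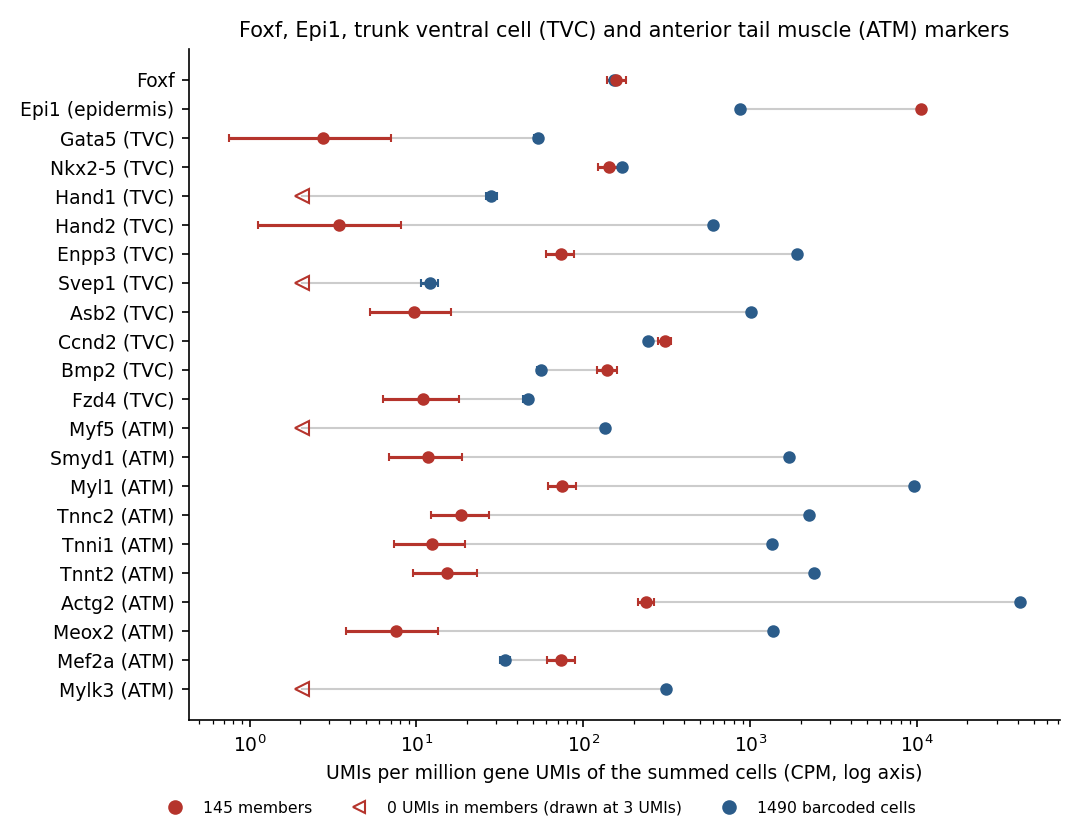
Levels (x axis, CPM on a log axis) of Foxf, Epi1 and the TVC and ATM markers (y axis) in the 145 Matn4 gate cells, labelled members, and the 1490 barcoded cells, with bars for 95% Poisson intervals and open triangles for genes with 0 UMIs drawn at the floor of 3 UMIs (2.07 CPM). Foxf and Nkx2-5 lie close together in both populations, while Hand2 (3.44 against 601 CPM) and 9 of 10 ATM markers are far apart.

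Over the whole table, 8753 genes had at least 100 UMIs in both populations together. Of these, 660 (7.54%) were over 4-fold higher and 903 (10.3%) over 4-fold lower in the Matn4 gate cells than in the barcoded cells. The median gene had a ratio of 0.811, and after division by that median 787 genes were over 4-fold higher and 719 over 4-fold lower. Relative to the median gene, Foxf came to 1.27.

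The leading genes were 20 genes with the largest lower bound of this ratio among those seen in at least 25% of the cells. The first was Sp9-KY.Chr13.409, whose match is a zinc-finger transcription factor of the Sp family. It had 0 to 36 UMIs per gate cell and a UMI in 41 cells (28.3%), against 3.09% of the barcoded cells, and its level was 319 against 6.97 CPM (ratio 45.7, 38.2 to 54.9). KY.Chr4.810 followed with a ratio of 32.0 (21.6 to 48.0), 53.7 against 1.68 CPM. KY.Chr2.772 was the most abundant of the first 10 genes, at 889 against 38.7 CPM (ratio 23.0), and had a UMI in 72 cells. Of the 20 genes, 16 have no mouse match name in the paper's tables, so no role is given for them here. A missing name does not show that a gene has no mouse counterpart. The paper names 1 of these, KY.Chr3.1404, as Irx.c, a gene by which it defines a terminal state of the B8.5 mesenchyme lineage. It was at 81.2 against 3.44 CPM (ratio 23.6), with a UMI in 53 gate cells.

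The other genes with a match name were Hmcn1-KY.Chr2.1151, Kctd1-KY.Chr9.1098 and Adgrb2-KY.Chr14.337. Hmcn1, a hemicentin and thus a large matrix protein, stood at 574 against 33.5 CPM (ratio 17.2). Kctd1, which in vertebrates represses AP-2 transcription factors, was at 755 against 49.0 CPM (ratio 15.4) with a UMI in 131 cells (90.3%). Adgrb2, an adhesion G protein-coupled receptor, was at 1746 against 117 CPM (ratio 14.9). The most widely seen of the genes without a match name were KY.Chr4.854 (129 cells), KY.Chr14.243 (128 cells) and KY.Chr1.2074 (127 cells), with ratios of 16.0, 15.6 and 16.8. Together the 20 ratios ran from 14.9 to 45.7.

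The ratios depended on which barcoded cells entered. Over the barcoded cells with a gate sum under 5, the same 20 genes had ratios of 29.5 (KY.Chr8.702) to 692 (Hmcn1), and Sp9 reached 150. Over the 520 KY.Chr3.262 gate cells, which are all unbarcoded cells with at least 5 UMIs in the second sum, the ratios were 1.180 (Adgrb2) to 4.56 (KY.Chr2.772), with Sp9 at 3.39. Of these 520 cells, 448 also had a gate sum of 5 or more. The 2 sets thus mostly share the Matn4 gate and differ in the second sum. In the 72 with the second sum alone, Sp9, Hmcn1, Kctd1 and Adgrb2 were at 38.6, 77.1, 185 and 419 CPM. In the Matn4 gate cells they were at 319, 574, 755 and 1746 CPM. The leading genes thus separated the Matn4 gate cells from barcoded cells far more than from a set that mostly passed the same gate.

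**Figure D3:**
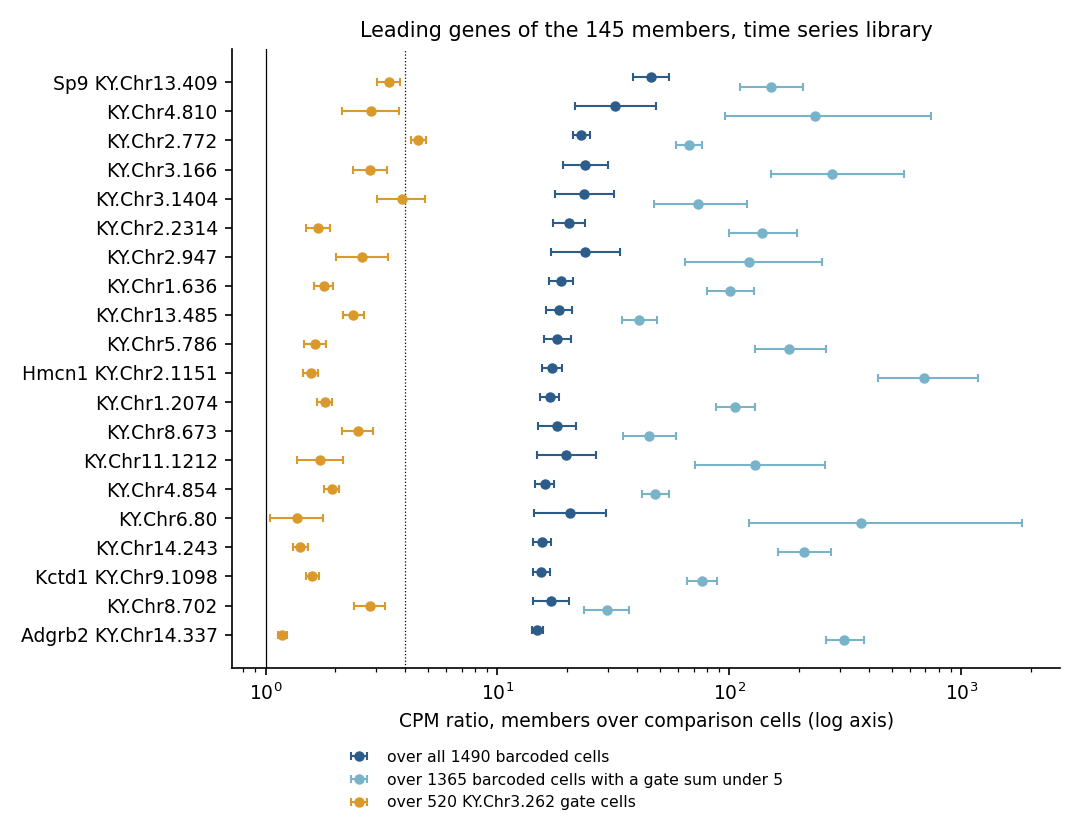
CPM ratio (x axis, log scale) of the 20 leading genes (y axis) in the 145 Matn4 gate cells, labelled members, over 3 sets of comparison cells, with bars for 95% conditional binomial intervals, a solid line at 1 and a dotted line at 4. Ratios over all barcoded cells run from 14.9 to 45.7, those over barcoded cells with a gate sum under 5 from 29.5 to 692, and those over the KY.Chr3.262 gate cells from 1.180 to 4.56.

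The study listed 159 transcription factor genes by the gene clusters of its cardiopharyngeal trajectory. Of these, 6 were over 4-fold higher (background 7.54%) and 35 over 4-fold lower (background 10.3%), with a median ratio of 0.793. Sp9 (ratio 45.7) and KY.Chr3.1404 (ratio 23.6) are not on that list, so it does not rank all factors. The highest on the list were 2 genes matched to Id2, an inhibitor of basic helix-loop-helix factors and a common target of BMP signalling. Id2-KY.Chr7.1157 had a UMI in 103 cells and a level of 3289 against 277 CPM (ratio 11.9, 11.45 to 12.3), and Id2-KY.Chr7.1153 reached 1678 against 207 CPM (ratio 8.111). Foxh1-KY.Chr14.65, a forkhead partner of Smads, was at 223 against 27.8 CPM (ratio 8.03) in 50 cells. Creb3l1-KY.Chr2.2188, a membrane-bound regulator of secretory genes, was at 516 against 74.0 CPM (ratio 6.97) in 134 cells, and Irf8-KY.Chr12.1060 at 59.9 against 11.51 CPM (ratio 5.204).

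Of the 159 factors, 8 had 0 UMIs in the Matn4 gate cells, among them Myf5 and Hand1, so their ratios were tied at 0. The first 3 of these by identifier are given. Esrrg-KY.Chr11.439, a nuclear receptor, was at least 12.5-fold lower than in the barcoded cells, Tbx6-r.c-KY.Chr11.469 at least 10.1-fold and Tbx6-KY.Chr11.468 at least 5.57-fold. The Tbx6 genes are near neighbours with similar sequences, so reads may be split between them.

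The 8 genes with the smallest upper bound of the ratio were matched to titin, actins and a calcium pump. Ttn-KY.Chr9.1127, the giant sarcomere protein titin, had 21 UMIs in the gate cells and 113969 in the barcoded cells (14.46 against 4786 CPM). The others were Actb-KY.Chr4.231, 3 genes matched to the calcium pump Atp2a3 and 3 matched to the actin Actg2, and their ratios were 0.0038 to 0.0058. Near-identical actin and Atp2a3 copies can share reads.

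The lists of related genes moved to different extents. A list of 90 genes was drawn by the study as a cluster of genes along the cardiopharyngeal trajectory of this same library. It is thus no independent evidence. Of its 87 tested genes outside the gate, 51 were over 4-fold higher (background 7.54%) and 3 over 4-fold lower (background 10.3%). The median ratio was 6.90, against 0.811 for all genes. Among its members, Tsta3-KY.Chr1.1897, a GDP-fucose synthesis enzyme, stood at 28804 against 2739 CPM (ratio 10.5). KY.Chr11.80 and KY.Chr4.1110 had ratios of 12.3 and 12.9.

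Matrix genes went both ways. Of 69 tested, 27 were over 4-fold higher (39.1%, background 7.54%) and 12 over 4-fold lower (17.4%, background 10.3%), with a median of 1.16. The high ones included Sspo-KY.Chr8.323 (8439 against 786 CPM, ratio 10.7), Svep1-KY.Chr10.1201 (ratio 10.8) and Matn2-KY.Chr1.2555 (ratio 8.45). The low ones included Thbs2-KY.Chr3.1534, a thrombospondin (10.3 against 1643 CPM, ratio 0.0063), and Col1a1-KY.Chr7.425, a fibrillar collagen (211 against 1209 CPM, ratio 0.17). Hmcn1-KY.Chr13.81, which neighbours the gate gene KY.Chr13.80 in the gene order of the identifiers, had a ratio of 5.89, and reads shared between the neighbours could not be checked.

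Of 16 proteases, 5 were over 4-fold higher (31.2%, background 7.54%) and 2 over 4-fold lower, with a median of 0.987. The lower share, 12.5%, was near the background of 10.3%. Plg-KY.Chr7.527, matched to plasminogen, stood at 2524 against 172 CPM (ratio 14.7), the kallikrein match Klkb1-KY.Chr10.89 at 2378 against 248 CPM (ratio 9.61) and the serine protease match Tmprss11a-KY.Chr7.711 at 1162 against 147 CPM (ratio 7.89). The lysosomal cathepsin Ctsl-KY.Chr3.1458, in contrast, was level (ratio 1.02).

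In the BMP list, 5 of 13 genes were over 4-fold higher (38.5%, background 7.54%) and 2 over 4-fold lower (15.4%, near the background of 10.3%), with a median ratio of 2.50. The higher ones were the pair of Id2 genes, the BMP-binding Chrdl1-KY.Chr10.1268 (ratio 13.0) and Bmper-KY.Chr13.487 (310 against 42.5 CPM, ratio 7.29), and the ligand Nodal-KY.Chr14.1181 (ratio 4.15). Bmp2 itself had a ratio of 2.50 and the antagonist Nog-KY.Chr12.723 one of 0.12. In the Wnt list, 2 of 16 genes were over 4-fold higher (12.5%, near the background), the co-receptor Lrp6-KY.Chr5.780 (2044 against 180 CPM, ratio 11.35) and Dkk3-KY.Chr8.968 (ratio 6.56), and 4 were over 4-fold lower (25%), down to the ligand Wnt9a-KY.Chr9.610 with 1 UMI (ratio 0.0058, 1.5e-04 to 0.032).

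In the list of FGF, MAPK and Notch genes, 2 of 19 were over 4-fold higher (10.5%, near the background of 7.54%) and 5 over 4-fold lower (26.3%, background 10.3%), with a median of 0.570. The higher ones were Notch2-KY.Chr10.1200 (ratio 7.92) and Notch3-KY.Chr9.868 (ratio 6.36), receptor matches by name. Of 15 cell cycle genes, 0 were over 4-fold higher and 7 over 4-fold lower (46.7%, background 10.3%), with a median of 0.255. Relative to the median gene 5 were over 4-fold lower, and over the barcoded cells with a gate sum under 5 there were 9. The S-phase helicase subunits Mcm5-KY.Chr8.692 (ratio 0.10) and Mcm4-KY.Chr1.1468 (ratio 0.15) were among the lowest, the cyclin Ccna1-KY.Chr2.535 had 557 against 2364 CPM, and the genes with ratios over 1 were Cdc25a-KY.Chr5.722 (ratio 1.51), Ccnb3-KY.Chr1.2531 (ratio 1.26) and Ccnd2 (ratio 1.26). Of 24 genes for junctions, integrins and intermediate filaments, 2 were over 4-fold higher (8.33%, near the background) and 5 over 4-fold lower (20.8%), the higher being Cldn1-KY.Chr11.160, a tight junction claudin (2327 against 579 CPM, ratio 4.02), and Cldn16-KY.Chr5.436, with 343 of its 344 UMIs in 3 cells.

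Against the KY.Chr3.262 gate cells the ranking was led by genes from few cells. KY.Chr1.1988 had all 93 of its UMIs in 2 cells, Cldn16 99.7% in 3, and KY.Chr11.377 88.3% in 3. Shroom3-KY.Chr14.43, a regulator of apical constriction, was seen in 14 cells. KY.Chr2.772 was the only one of the 5 first genes seen in many (72 cells, 889 against 195 CPM). Vim-KY.Chr3.1290, an intermediate filament gene, was among the genes far lower here, at 217 CPM against 3768 CPM in the KY.Chr3.262 gate cells (ratio 0.06); it was chosen after its values were seen.

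The Matn4 gate cells were not uniform. Clustering of their own transcriptomes, without the gate genes, gave 5 groups of 37, 35, 33, 22 and 18 cells. A cluster's own genes define it, so these are descriptions. Group 1 was led by KY.Chr5.531 (3951 against 93.5 CPM in the other gate cells), with Tuba1c, a tubulin, and Cav1, a caveola protein. Group 2 was led by KY.Chr8.1390 and KY.Chr11.360, with Foxh1 at 836 against 35.1 CPM and the adhesion receptor Adgrb1 at 13383 against 952 CPM. Group 3 held most of the Sp9 RNA (1093 against 42.0 CPM), with Casq2, a calcium-storage protein, and Nrcam, a neural adhesion molecule.

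Groups 4 and 5 were smaller. Group 4 was led by KY.Chr10.1053 and KY.Chr5.686, with the tubulin Tuba1b at 1327 against 205 CPM, and group 5 by KY.Chr11.166 (1025 against 76.0 CPM). At other resolutions (0.4, 0.8 and 1) the same cells fell into 3, 7 and 7 groups, with adjusted Rand indices of 0.57, 0.80 and 0.78 against these. The 8 leading genes of a group were not confined to it. At least 5 UMIs in their sum were found in 95, 84, 48, 68 and 131 of the 145 cells for groups 1 to 5. The sets of groups 1 and 2 were found together in 49 cells.

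The gate genes and Foxf were shared out unevenly over the groups. Matn4 was highest in group 2 (17641 CPM) and group 5 (10517 CPM), KY.Chr13.80 in group 3 (1431 CPM) and KY.Chr8.1095 in group 4 (526 CPM). Foxf was detected in all 5 groups, at 158, 182, 86.3, 172 and 299 CPM in groups 1 to 5. Its intervals in group 3 (59.4 to 121 CPM) and group 5 (206 to 421 CPM) did not overlap, and those of groups 1, 2 and 4 did. Nkx2-5 was at 133 to 218 CPM in groups 1, 2, 3 and 5 and at 9.31 CPM (1.13 to 33.6) in group 4, where it had 2 UMIs. Epi1 was high in each group, from 7845 CPM in group 3 to 13514 CPM in group 4.

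**Figure D4:**
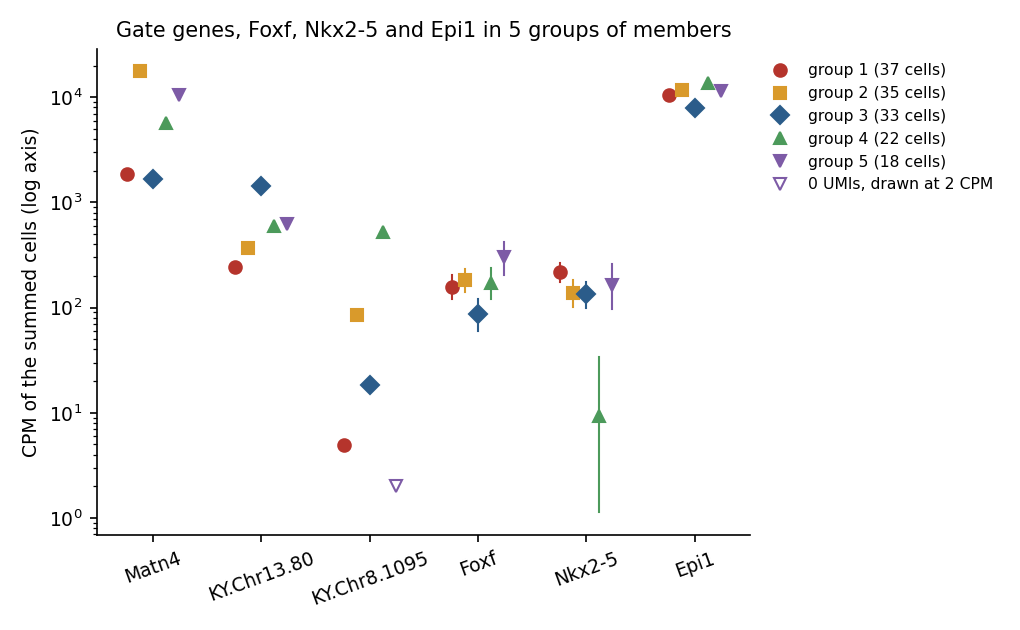
Summed levels (y axis, CPM on a log scale) of the 3 gate genes, Foxf, Nkx2-5 and Epi1 (x axis) in the 5 groups of Matn4 gate cells, with bars for 95% Poisson intervals of Foxf, Nkx2-5 and Epi1 and an open symbol for a gene with 0 UMIs. Foxf spans 86.3 to 299 CPM, and Nkx2-5 is low in group 4 alone (9.31 CPM).

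The CRISPR libraries, which had no part in choosing the cells or the leading genes, held few cells under the same gate: 9 in repeat 1 (80066 UMIs) and 20 in repeat 2 (138123 UMIs), against 169 and 465 barcoded cells. Summed counts per library were compared with edgeR's quasi-likelihood test with Benjamini-Hochberg adjustment, calling a gene at an adjusted p under 0.05 and a log2 fold change over 1 in size. Of 8330 genes, 1042 were higher (12.5%) and 1132 lower (13.6%) in the gate cells. The TMM scaling moved all log2 values by 0.55, and with library totals alone 1535 were higher and 686 lower. The labels do not say whether the repeats came from separate embryo cultures, so the p-values measure the spread between these 2 libraries.

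The leading genes of the time series were also high here. Of 20, 19 could be tested and 19 were called higher (background 12.5%), with log2 fold changes of 2.46 to 7.52. Hmcn1-KY.Chr2.1151 had 1636 and 847 CPM in the gate cells of repeats 1 and 2 and 2.43 and 5.07 CPM in the barcoded cells (log2 fold change 7.52, SE 0.34, edgeR adjusted p = 1.07e-06). Sp9 had 475 and 702 CPM against 2.92 and 8.14 CPM (log2 fold change 6.003, SE 0.40, edgeR adjusted p = 6.01e-06). Adgrb2 had 2211 and 3157 CPM against 34.1 and 32.5 CPM (log2 fold change 5.82, SE 0.24, edgeR adjusted p = 7.29e-07). In each of these, both gate sums stood above both barcoded sums by many-fold.

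Epi1 was at 13152 and 11975 CPM in the gate cells and at 190 and 245 CPM in the barcoded cells (log2 fold change 5.29, SE 0.24, edgeR adjusted p = 1.07e-06). All 5 of the highest transcription factors on the study's list were called higher. They ran from Foxh1-KY.Chr14.65 (1.52, SE 0.49, edgeR adjusted p = 0.048, and 0.189 with the library as a term, which ends the call) to Creb3l1-KY.Chr2.2188 (3.35, SE 0.19, edgeR adjusted p = 2.64e-06). All 8 of the genes with the smallest upper bounds were called lower (background 13.6%), and so were 7 of 10 TVC and 9 of 10 ATM markers. Hand2, Gata5, Hand1, Asb2 and Myf5 had 0 UMIs in the gate cells of both repeats. Of the 5 founder markers, only Lhx3/4-KY.Chr13.449 could be tested, and it was called higher (log2 fold change 1.17, SE 0.37, edgeR adjusted p = 0.046). With the library as a term its adjusted p was 0.0898, which ends the call.

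Foxf was not called different from the barcoded cells under this scaling. It had 187 CPM in repeat 1 (105 to 309, in 5 of 9 cells) and 290 CPM in repeat 2 (207 to 394, in 11 of 20 cells). The barcoded cells had 137 and 103 CPM, a sum that includes the cells with Foxf CRISPR. Both gate sums were thus above both barcoded sums, and the log2 fold change was 0.55 (SE 0.28, edgeR adjusted p = 0.18). With library totals alone it was 1.08 (edgeR adjusted p = 0.019), so the call depends on the scaling.

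Against the other unbarcoded cells of the same libraries, which had 0 and 5.06 CPM of Foxf, it was 6.22 (SE 0.69, edgeR adjusted p = 8.75e-04). Against the KY.Chr3.262 gate cells, at 250 and 174 CPM, Foxf was -0.0044 (SE 0.33, edgeR adjusted p = 0.998). Most of the KY.Chr3.262 gate cells also had a gate sum of 5 or more. The comparisons with these unbarcoded sets were added after the data had been seen.

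Nkx2-5 had 125 and 65.2 CPM in the gate cells of repeats 1 and 2 and 200 and 169 CPM in the barcoded cells, and was called lower (log2 fold change -1.60, SE 0.30, edgeR adjusted p = 0.0035; -1.06 with library totals alone, adjusted p = 0.037). Both gate sums lay below both barcoded sums. Bmp2 and Ccnd2, at log2 fold changes of -0.13 (SE 0.38) and -0.03 (SE 0.27), were not called and had the opposite sign with library totals alone (0.40 and 0.51).

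**Figure D5:**
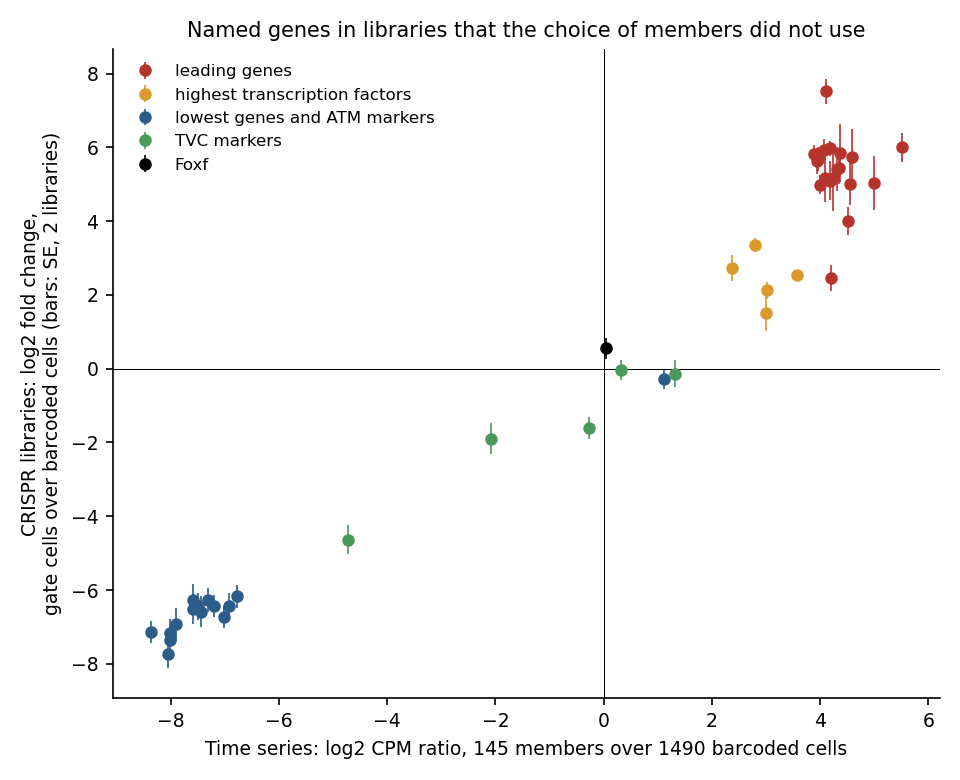
Named genes by their log2 CPM ratio of the 145 gate cells over barcoded cells in the time series (x axis) and their edgeR log2 fold change in the 2 CRISPR libraries (y axis, bars for the SE), leaving out genes with 0 UMIs in the gate cells. The 19 tested leading genes lie at 2.46 to 7.52 on the y axis, and Foxf lies at 0.55.

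For the gene lists, calls are read against the 12.5% of all genes called higher and the 13.6% called lower, under a rule other than that of 4-fold in the time series. Of 83 tested genes of the study's 90-gene list, 54 were called higher and 2 lower. Of 63 matrix genes, 23 were higher and 19 lower (23 and 13 with library totals alone), and of 14 proteases 5 were higher and 5 lower (5 and 3). Of 11 BMP genes, 5 were higher and 0 lower, with Id2-KY.Chr7.1157 at 2.54 (SE 0.14) and Bmper at 2.33 (SE 0.35). Of 14 Wnt genes, 1 was higher (7.14%, below the background), Lrp6-KY.Chr5.780 at 4.98 (SE 0.21), and 6 were lower.

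Of 15 cell cycle genes, 0 were higher (background 12.5%) and 9 lower (background 13.6%; 0 and 6 with library totals alone), and their median log2 fold change was -1.52 against -0.28 for all genes. Of 16 FGF, MAPK and Notch genes, 3 were higher (18.8%, near the background) and 1 lower (6 and 1), with Notch2-KY.Chr10.1200 at 5.24. Of 24 junction, integrin and filament genes, 2 were higher (8.33%, below the background) and 7 lower (4 and 6). Transcription factors split 14 higher to 33 lower of 147, and 22 to 21 with library totals alone, so no direction is drawn for them as a group.

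Between the 2 gates the CRISPR libraries gave little. Of the 22 and 94 KY.Chr3.262 gate cells in repeats 1 and 2, 21 and 84 also had a gate sum of 5 or more. The comparison was thus mainly with cells that passed the Matn4 gate as well. The 22 and 94 KY.Chr3.262 gate cells of these libraries differed from the Matn4 gate cells in 1 of 5062 genes by the edgeR test: 0 were higher (0%) and 1 was lower (0.0198%), with 520 genes at an unadjusted p under 0.05. The gene was Vim-KY.Chr3.1290, at a log2 fold change of -5.18 (SE 0.21, edgeR adjusted p = 0.0021). With the library as a term in the model, the calls were 10 higher and 79 lower. Of the 5 genes that led the time series ranking over the KY.Chr3.262 gate cells, Cldn16 had 0 and 14.48 CPM in the gate cells and KY.Chr2.772 had 400 and 167 CPM, and neither was called between the gates (edgeR adjusted p = 0.37 and 0.67).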

How the data were processed

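The authors made UMI counts in Cell Ranger 3.0.1 against KY2019 gene models with 21 sample barcodes added, and deposited these counts unnormalized. Barcode features were left out of library sizes. In the time series, cells with a gene number between the 1st and 99th percentile were kept (2517 of 2569); the CRISPR libraries were used whole. Barcode pairs were the mutually most correlated barcodes. No doublets were removed. Gene names are mouse matches in the paper's tables, from which the 90-gene list and the transcription factors also came. The members and lists were chosen with earlier results of these data known.

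Genes were named by rule: the 20 with the largest lower bound of the ratio (at least 100 UMIs in both populations, seen in at least 25% of gate cells), the 8 with the smallest upper bound, the 5 highest and 3 lowest transcription factors (ties in order of identifier), the 5 largest over KY.Chr3.262 gate cells, all markers and up to 4 members of each list. Others named from the lists were chosen after their values were seen. A gene that the rule names is not reported here. Groups came from scanpy 1.11.5 (2000 variable genes, 15 components, Leiden resolution 0.6). CRISPR sums were tested with edgeR 4.0.16 (TMM, its filter on low counts, R 4.3.3; the SE is the log2 fold change over the root of F); the sums of 1 repeat come from 1 library, and the deviations of the gate and barcoded sums correlated at r = -0.04 over 7450 genes. The fit without a library term was used, and the fit with one, DESeq2 1.42.0, other gates and filters were alternatives. Scripts were tested on simulated data.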

Additional observations from a re-analysis of the deposited data

How the results depend on the processing

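Most results kept their direction and size. The number of Matn4 gate cells became 593 without the second sum and 34 when no barcode UMI was allowed. Foxf was then at 111 and 127 CPM, 0.73 and 0.83 times the barcoded cells, with a UMI in 50.9% and 52.9% of cells. In gate cells within 0.5 to 2 times their median UMI total it was at 180 CPM, its share after thinning was 34.6%, and relative to the median gene its ratio was 1.27. The Epi1 ratio was 11.44 at a gate of 3 UMIs, 13.0 with no barcode UMI, 12.7 in the depth band, 24.1 with 1 dominant pair per barcoded cell, 60.6 with at least 10 barcode UMIs (added after the data were seen), 91.1 over barcoded cells with a gate sum under 5 and 11 as a mean over cells. Genes over 4-fold numbered 346 higher and 524 lower at a minimum of 500 UMIs, and 1494 lower with no barcode UMI. In the CRISPR libraries, a gate of 3 UMIs gave 628 lower calls and library totals alone gave 686 lower and a Foxf log2 fold change of 1.08. With the replicate block, 980 genes were called higher and 1063 lower than in barcoded cells and Foxf was at 0.50 (adjusted p = 0.255), and beside the comparison between the gates the block changed no call on Foxf and moved neither count of calls by over 1.5 times. Of 70 named genes called there, the block lost 2, Foxh1 (adjusted p = 0.189) and Lhx3/4-KY.Chr13.449 (0.046 to 0.0898), and it gained 1, Cldn16-KY.Chr5.436 (0.087 to 0.0027).

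Leaving out 1 CRISPR repeat gives values with no test: 1019 to 1876 genes over 2-fold higher, 997 to 1296 lower and a Foxf log2 value of 0.50 to 1.503, with 1876, 1296 and 1.503 without repeat 1 and the lower values without repeat 2. Of 40 named genes over 4-fold higher, 389 of 400 values under the alternatives stayed over 4. The exceptions that turned were KY.Chr1.1988 and Cldn16 (both 0 with no barcode UMI and 0 in the depth band) and KY.Chr11.377 (0.94 with no barcode UMI), genes held by few cells. Of 35 named genes under 0.25, 346 of 350 values stayed under it, and the highest was 0.40. Without the 3 cells rich in Cldn16, 639 genes were higher and the Foxf ratio was 1.06. The depth of 145 cells limits genes under the floor of 2.07 CPM, and the 9 and 20 CRISPR gate cells limit the test.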

Other observations

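The list that the study drew from this library also held genes for making sugar nucleotides and sulfated glycans, and these were high in the Matn4 gate cells. Beside Tsta3-KY.Chr1.1897, they were Uxs1-KY.Chr7.872, which makes UDP-xylose (ratio 10.20 over the barcoded cells), Chst2-KY.Chr5.604, a sulfotransferase (ratio 9.48), Gmppa-KY.Chr9.1126, related to GDP-mannose synthesis (ratio 7.95), Ugp2-KY.Chr11.602, which makes UDP-glucose (ratio 6.30), and Papss2-KY.Chr2.1401, which makes the sulfate donor (ratio 5.08). In the CRISPR libraries their log2 fold changes were 4.72, 4.68, 3.90, 3.04 and 1.85 in the same order, all called higher by the edgeR test. These genes were picked for their function after their values were seen, from a list that this library defined, so their values describe the cells and test nothing.

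The 41 barcoded cells with a gate sum of 5 or more and fewer than 5 UMIs in the second sum had a Foxf level of 179 CPM (144 to 219), and a Foxf UMI was found in 29 of them. Their median number of sample barcode UMIs was 4, with a highest value of 1258.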
